A study of Mus musculus with 6 samples.

Results

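The GATA factors examined here were Gata2, Gata3, Gata4, Gata5 and Gata6, 5 of the 18193 genes that the array annotation names singly. Every probe set whose annotation names 1 of these genes and no other was taken, which gave 10 probe sets. Gata2, Gata4 and Gata5 had 2 each, Gata3 had 1 and Gata6 had 3. The study asked how gene expression is divided into regions within the outflow tract, the vessel-like exit of the embryonic heart. Tissue came from CD1 mouse embryos at embryonic day 10.5, with no genetic change or treatment named in the labels. The samples were 3 pools of superior outflow tract and 3 pools of inferior outflow tract, numbered 1, 6 and 7 in either region, with 1 Affymetrix Mouse Genome 430 2.0 array for each pool. Each pool mixes pieces of several littermates, 6 by the sample labels and 7 by the design text, so that the spread between single embryos was not measured, and the labels do not say that the pools are separate litters.

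GATA factors are transcription factors whose paired zinc fingers recognise the letters GATA in DNA. Gata4, Gata5 and Gata6 are the members best known from heart muscle, endocardium and endoderm, where they act with Nkx2-5, Tbx5 and the FOG cofactors. Gata2 and Gata3 are best known from blood, endothelium, lymphoid cells and the sympathetic nervous system. Loss of Gata6 function in neural crest derivatives of mice is known to disturb septation of the outflow tract, the process that separates aorta and pulmonary trunk.

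No GATA probe set passed the test between the regions, although the Gata3 signal was lower in every superior pool than in any inferior pool. In 4 other probe sets, 1 of Gata2, both of Gata5 and 1 of Gata6, the signal was also lower in the superior part of every pool, while the brighter Gata4 probe set had nearly equal levels in both regions. The values are MAS5 signals, a linear brightness that the authors scaled to a common level on every array. Levels of different probe sets are not set against each other, since each probe set has its own response. All 10 probe sets passed the filter on dim signals, and 9 of them exceeded the background level of 8.0 on all 6 arrays. That level is the highest signal of the Bacillus control probe sets, which were taken as having no target because all lay at the bottom of the scale. The tenth, the dimmer Gata4 probe set, exceeded it on 5 arrays.

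Across the 6 arrays, the median signal ranged from 13.9 to 17.6. The superior pool 6 array stood apart in its hybridisation controls, which were 1.63 times those of the median array. Pool 1 stood apart in RNA measures, with a ratio of 5′ to 3′ beta-actin signal of 0.449 in its superior and 0.443 in its inferior array, against 0.534 to 0.688 on the other arrays. The same ratio for Gapdh differed within pool 1, at 0.769 in its superior and 0.452 in its inferior array, against 1.11 to 1.20 elsewhere. Its 18S ribosomal RNA signals were 103.8 and 95.6, against 475.3 to 785.6 on the other arrays. Differences are superior minus inferior on the log2(signal + 3.2) scale, fitted with limma with the pool number in the model and adjusted over 22518 probe sets. At an adjusted p threshold of 0.05, 0.160% of all tested probe sets were called, and 0 of the 10 GATA probe sets were. Without the pool number limma called 0.00% of all probe sets and again 0 of the 10. At an unadjusted p threshold of 0.05, 4 GATA probe sets passed in the paired fit, where 11.0% of all probe sets did, and 3 without the pool number, where 3.52% did. The mean difference was below 0 for 9 of the 10 probe sets, against 55.1% of all probe sets, and the median over the 10 was -0.17 against -0.02 over all. Probe sets of 1 gene are not independent of each other, so the 10 are not 10 separate observations.

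**Figure D1:**
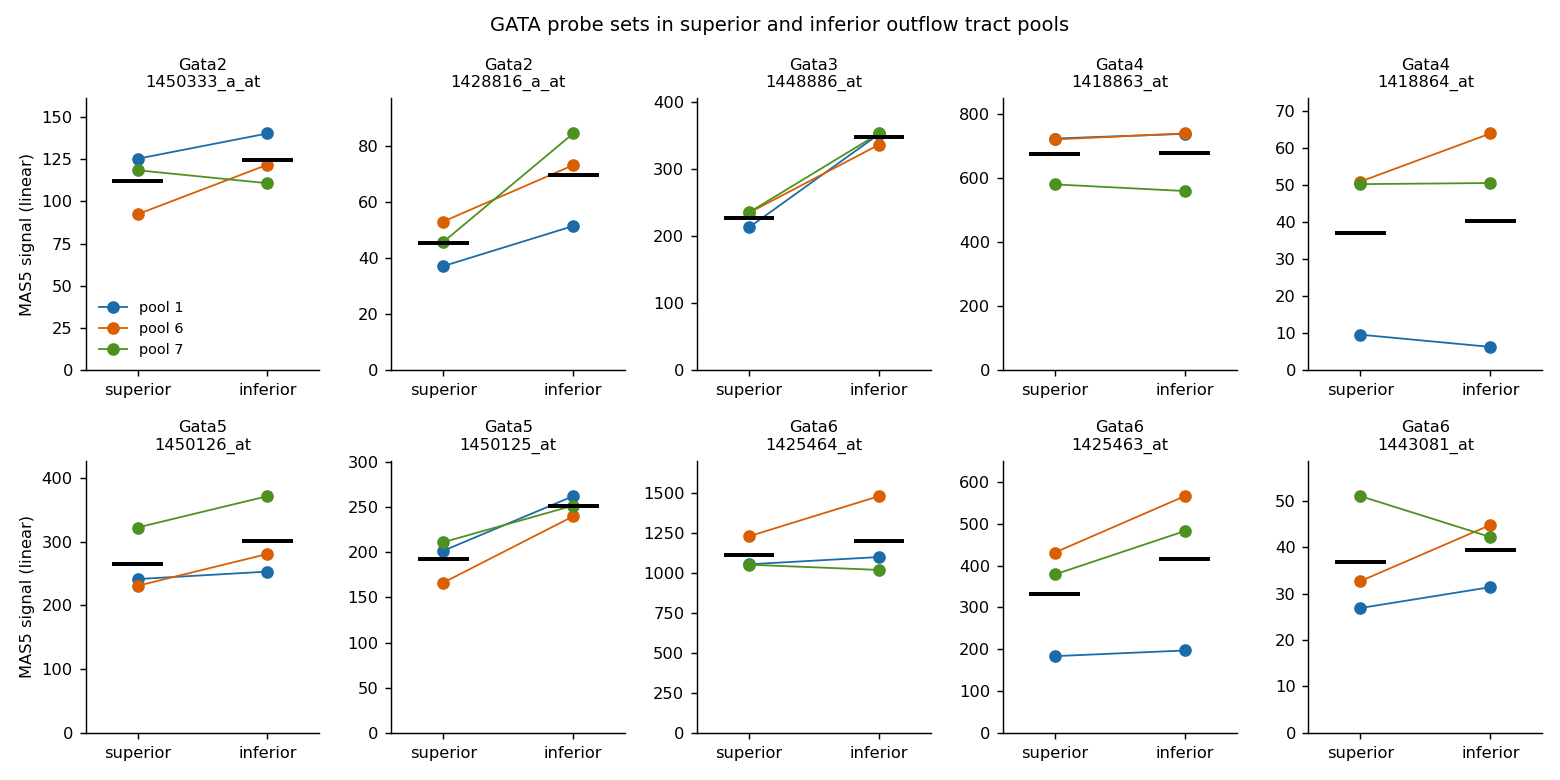
MAS5 signal (linear axes from 0) of each of the 10 GATA probe sets, with superior pools on the left and inferior pools on the right, lines joining arrays of the same pool number and black bars at the mean of 3 pools. The regions do not overlap for Gata3 and for Gata5 probe set 1450125_at, and pool 1 lies far below the others for Gata4 probe set 1418864_at and Gata6 probe set 1425463_at.

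Gata3, a regulator of T cells and of sympathetic neurons, had signals of 213.2, 235.0 and 235.6 in superior pools 1, 6 and 7, against 352.5, 336.7 and 353.5 in the inferior pools of the same numbers. All 3 superior values lay below all 3 inferior values, an order that 4.56% of tested probe sets had (4.65% had the opposite one), and the spread within either region was small beside the gap. The mean was 228 ± 12.8 in superior pools and 348 ± 9.42 in inferior pools (SD, n = 3 each). The log2 difference was -0.60 ± 0.10 (SE), with a 95% interval of -0.82 to -0.38, which amounts to 0.658 times the inferior level. Gata3 ranked 52 by p among the 22518 probe sets, and limma's adjusted p was 0.0761, short of the threshold. Without the pool number limma's adjusted p was 1.00, with the same difference and an SE of 0.11. The exact permutation test of superior against inferior gave p = 0.1, the smallest value that 3 arrays against 3 allow. In paired fits with 1 pool left out, Gata3 passed without pool 6 (limma adjusted p = 0.0255) and without pool 7 (0.0461), but not without pool 1 (0.802). Each of these fits had 1 residual degree of freedom. Over all 22518 probe sets they called 231 without pool 6, 113 without pool 7 and 9 without pool 1, against 36 with all 3 pools. The within-pool differences were -0.72, -0.51 and -0.58 in pools 1, 6 and 7. Whether the unlike Gapdh ratios of pool 1 had a part in its difference was not tested. In whole tissue pieces, fewer cells that express a gene and less RNA in each such cell cannot be told apart.

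Start-site sequences of some of the GATA genes are shown because the family is known to act on its own promoters. RefSeq sequence of build GRCm38.p6 was used for 3 of the 5 genes, Gata2, Gata3 and Gata5, in 4 windows, Gata2 having 2 annotated starts. No window of Gata4 or Gata6 was examined, so motifs at their starts are not described. The windows run from 250 bases before to 50 bases after the start, and the part before the start is printed 5′ to 3′ on the gene's strand. Capitals mark matches, on either strand, to 5 motifs: the GATA motif (the letters GATA with A or T before and A or G after them), the CCAAT box (CCAAT), the TATA box (TATAAA), the GC box (GGGCGG) and the E-box (CACGTG), none of which overlap here.
Gata3, chr2:9878601-9878850, minus strand: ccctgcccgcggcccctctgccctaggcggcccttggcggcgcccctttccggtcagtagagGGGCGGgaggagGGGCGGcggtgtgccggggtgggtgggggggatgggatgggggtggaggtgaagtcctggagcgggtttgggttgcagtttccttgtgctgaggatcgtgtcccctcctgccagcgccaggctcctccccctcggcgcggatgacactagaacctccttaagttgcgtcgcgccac
Gata2, first start, chr6:88193641-88193890, plus strand: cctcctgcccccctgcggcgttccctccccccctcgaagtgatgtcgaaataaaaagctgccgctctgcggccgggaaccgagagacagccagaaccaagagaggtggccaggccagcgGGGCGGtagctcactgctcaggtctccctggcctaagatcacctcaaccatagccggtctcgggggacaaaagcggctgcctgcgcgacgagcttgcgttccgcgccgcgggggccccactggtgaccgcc
Gata2, other start, chr6:88198414-88198663, plus strand: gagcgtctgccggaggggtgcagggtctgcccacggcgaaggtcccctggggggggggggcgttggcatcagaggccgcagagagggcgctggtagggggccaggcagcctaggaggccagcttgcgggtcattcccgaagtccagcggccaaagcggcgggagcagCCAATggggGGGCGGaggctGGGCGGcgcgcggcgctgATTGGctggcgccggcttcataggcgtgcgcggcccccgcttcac
Gata5, chr2:180334680-180334929, minus strand: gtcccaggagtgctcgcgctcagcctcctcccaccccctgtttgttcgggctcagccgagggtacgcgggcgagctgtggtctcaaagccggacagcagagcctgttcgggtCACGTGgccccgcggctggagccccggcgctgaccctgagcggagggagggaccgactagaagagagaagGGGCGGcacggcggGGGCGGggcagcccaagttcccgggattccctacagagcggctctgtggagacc

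All 4 stretches were rich in G and C, at 70.0% for Gata3, 67.2% and 74.0% for the Gata2 starts and 70.0% for Gata5, against a median of 52.4% over 32851 windows. Each of the 4 held a GC box, which 32.7% of all windows held. The CCAAT box occurred 2 times before the downstream Gata2 start (33.8% of all windows hold at least 1), and the E-box 1 time before Gata5 (6.02% of all windows). No TATA box (12.4% of all windows) and no GATA motif (26.5% of all windows) was found in the 250 bases before any of these starts. Within the 50 bases after the starts, 1 GATA motif was found, in Gata3. It reads TGATAG, with its first base at position 37 counted from the start as 1, at chr2:9878559-9878564 on the minus strand. Of all whole windows, 29.8% held a GATA motif. The 30 bases around it are shown with the motif in capitals.
Gata3, chr2:9878551-9878580, minus strand: ctgcctggcgccgtctTGATAGtttcagaa

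Gata2, a factor of blood stem cells and endothelium, was read by 2 probe sets that differed in how they split the regions. Probe set 1428816_a_at had signals of 37.1, 53.0 and 45.7 in superior pools 1, 6 and 7, against 51.4, 73.1 and 84.4 in the inferior pools. The superior signal was the lower one within every pool, as for 19.0% of tested probe sets, although superior 6 exceeded inferior 1 and the regions overlapped. Its log2 difference was -0.57 ± 0.15, with a 95% interval of -0.91 to -0.24 and limma's adjusted p = 0.264. Probe set 1450333_a_at had signals of 125.3, 92.4 and 118.5 in superior pools, against 140.3, 121.8 and 110.8 in inferior pools. Here pool 7 ran the other way, and the log2 difference was -0.15 ± 0.13 (95% interval -0.44 to 0.14, limma adjusted p = 0.703). Over the 6 arrays the 2 Gata2 probe sets did not follow each other, with a Pearson r of -0.21, so they do not give a common Gata2 level.

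Gata5, a factor of the endocardium that is needed for normal aortic valve leaflets in mice, also had 2 probe sets. Probe set 1450125_at had signals of 201.7, 166.4 and 211.2 in superior pools 1, 6 and 7, against 262.2, 239.9 and 251.7 in inferior pools. The regions did not overlap, and the log2 difference was -0.38 ± 0.10 (95% interval -0.61 to -0.15, limma adjusted p = 0.285, and 1.00 without the pool number). Probe set 1450126_at had signals of 241.4, 230.8 and 322.3 in superior pools, against 253.1, 280.8 and 371.5 in inferior pools. Its superior signal was the lower one within every pool while the regions overlapped, and the log2 difference was -0.18 ± 0.10 (95% interval -0.40 to 0.04, limma adjusted p = 0.521). Both Gata5 probe sets thus had a negative difference in all 3 pools, and their Pearson r over the 6 arrays was 0.52. Gata5os, a long noncoding RNA gene beside Gata5, did not exceed background on any array.

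Gata6, a factor of heart muscle, smooth muscle and neural crest derivatives, was read by 3 probe sets. The brightest, 1425464_at, had signals of 1056.1, 1231.5 and 1053.6 in superior pools 1, 6 and 7, against 1101.5, 1482.9 and 1020.9 in inferior pools. Pool 6 was the highest in either region, pool 7 had a slightly higher superior signal, and the regions overlapped. The log2 difference was -0.09 ± 0.09 (95% interval -0.31 to 0.12, limma adjusted p = 0.748), and it was -0.01 without pool 6. Probe set 1425463_at had signals of 183.6, 431.3 and 378.9 in superior pools, against 197.1, 566.2 and 482.6 in inferior pools, lower in the superior part of each pool. Its log2 difference was -0.28 ± 0.10 (95% interval -0.50 to -0.05, limma adjusted p = 0.393). Pool 1 lay below both other pools in either region, with a 2.57-fold range between pools that exceeded the region difference. Probe set 1443081_at had signals from 26.9 to 51.0 in superior pools and from 31.4 to 44.8 in inferior pools, and its log2 difference of -0.12 ± 0.18 (limma adjusted p = 0.842) was positive in pool 7 and negative in pools 1 and 6.

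Gata4, which the embryo needs to form a single heart tube, had no detectable region difference. Its brighter probe set, 1418863_at, had signals of 722.6, 719.8 and 579.6 in superior pools 1, 6 and 7, against 737.2, 738.4 and 558.8 in inferior pools. The regions overlapped, with pool 7 the lowest in both, and the differences within pools 1, 6 and 7 were -0.03, -0.04 and 0.05 on the log2 scale. The log2 difference was -0.00 ± 0.08, with a 95% interval of -0.19 to 0.19 and limma's adjusted p = 0.991. The other probe set, 1418864_at, had signals of 9.6, 51.0 and 50.3 in superior pools, against 6.3, 64.0 and 50.6 in inferior pools. Both arrays of pool 1 were near background while both other pools were clearly above it, a 5.47-fold range between pools. Its log2 difference of 0.04 ± 0.19 (95% interval -0.40 to 0.47, limma adjusted p = 0.963) changed sign between pools, with 0.43, -0.31 and -0.01 in pools 1, 6 and 7. The brighter Gata4 probe set was not low in pool 1, and the Pearson r of the Gata4 probe sets over the 6 arrays was -0.44. Gata6 probe set 1425463_at was low in pool 1 as well, while Gata6 probe set 1425464_at was not. Pool 1 also had the low 5′ to 3′ actin ratios given above, whose part in these low signals was not tested.

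**Figure D2:**
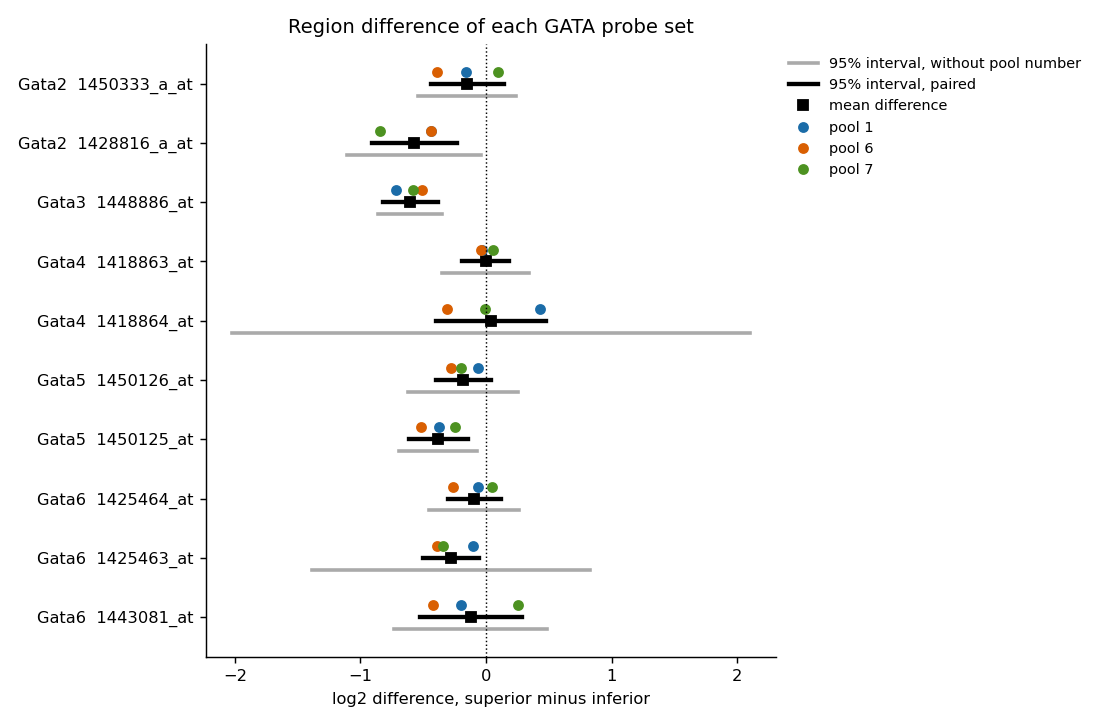
Log2 difference, superior minus inferior, of each GATA probe set: coloured points are single pools, black squares and bars the mean and 95% interval of the paired limma fit, grey bars the 95% interval without the pool number. Gata3, Gata2 probe set 1428816_a_at and Gata5 probe set 1450125_at have both intervals below 0, and the grey bars are widest for Gata4 probe set 1418864_at and Gata6 probe set 1425463_at.

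Seen across the family, 5 of the 10 probe sets were lower in the superior part of all 3 pools (19.0% of all tested probe sets were) and 0 were higher in all 3 (15.0% were). The 5 belonged to 4 genes, with 1 each for Gata2, Gata3 and Gata6 and 2 for Gata5. Gata4 was the gene with no such probe set. The order of the levels by array also differed between genes. Gata3 followed the regions, with the 3 highest signals in the 3 inferior arrays, and its mean level differed by 1.05-fold at most between pools. Some other probe sets followed the pools: the lowest arrays were both of pool 1 for Gata6 probe set 1425463_at and Gata4 probe set 1418864_at, and both of pool 7 for Gata4 probe set 1418863_at.

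For the probe set with the highest mean signal of each gene, the genes with the most similar profile were listed by Pearson r over the log2 values of the 6 arrays, which share pools and scaling. With 6 points such values are easily high, and they are given as a description. Closest to Gata3 were Unc45a (r = 0.981), Zfp445 (0.981) and Dnajb2 (0.980), and 30 probe sets reached an r of 0.95. Closest to Gata4 were Inpp5b (r = 0.996), Tbc1d8b (0.996) and H2-K1 (0.994), with 110 probe sets at 0.95 or more. Closest to Gata6 were Pdgfrl (r = 0.994), Ptprm (0.993) and Ckap4 (0.993), with 50 such probe sets. Closest to Gata5 were Malt1 (r = 0.995), Zfp326 (0.988) and Ankle2 (0.988), with 74. Closest to Gata2 were Ankrd11 (r = 0.998), Fam234a (0.992) and A930033H14Rik (0.991), with 104. None of these 15 genes passed the test between regions, and no GATA factor was among the 3 closest of another.

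The genes that work with GATA factors were described from a list of 25 cofactors and partners, all of them measured. Of these, 17 had a negative and 8 a positive difference, 0 were called in either direction, and the median log2 difference was -0.07 against -0.02 over all probe sets. That median was -0.037 without pool 1, -0.027 without pool 6 and -0.033 with 75th percentile scaling. Zfpm2, which encodes the FOG2 cofactor of Gata4, had a signal of 176 ± 19.5 in superior pools and 128 ± 48.0 in inferior pools (SD, n = 3 each; log2 0.50 ± 0.17, limma adjusted p = 0.376), the highest difference of the list. Without pool 6, whose difference was -0.03, Zfpm2 was called (log2 0.77, limma adjusted p = 0.0257). Zfpm1, the FOG1 cofactor, had 337 ± 99.5 in superior pools and 422 ± 154 in inferior pools (log2 -0.29 ± 0.10, limma adjusted p = 0.373). The FOG genes had differences of opposite sign, neither past the threshold over the 3 pools. Nkx2-5 and Isl1 had the lowest differences, both -0.31, and the acetyltransferase gene Kat2b had 0.23. The partners Tbx5 (-0.05), Mef2c (0.01) and Hand2 (-0.03) differed little in the mean, although Tbx5 was dim and ranged from -0.92 to 0.42 between pools. The haematopoietic partner Tal1 had -0.07.

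Of 26 genes known as targets of GATA factors in the heart, 23 were tested, 14 with a positive and 9 with a negative difference. The median log2 difference was 0.16. Sema3c, a guidance ligand and known Gata6 target, was the 1 member called, and it fell to 1311 ± 222 in superior pools against 2147 ± 292 in inferior pools (log2 -0.71 ± 0.10, limma adjusted p = 0.0484). Sema3c missed the threshold in 7 of the 12 alternatives. No gene of the list was called without the pool number or without pool 1, while Sema3c, Nppa and Nppb were called without pool 6 or without pool 7, and Ccnd2 without pool 6. Plxna2, a semaphorin receptor and also a known Gata6 target, had 120 ± 24.1 in superior pools and 167 ± 46.3 in inferior pools (log2 -0.46 ± 0.12, limma adjusted p = 0.285). The natriuretic peptide gene Nppa lay at the other end with 163 ± 125 in superior pools and 25.2 ± 8.02 in inferior pools (log2 2.24 ± 0.30, limma adjusted p = 0.0622), followed by Ccnd2 (0.59) and Nppb (0.56). Sema3c, Plxna2, Nppa and Nppb kept 1 sign in all 3 pools. The median of the target list was 0.00 with quantile normalization, 0.00 with cyclic loess, 0.085 without pool 6 and 0.089 without pool 7. Of the 10 other genes with GATA-type zinc fingers, 9 were tested, 5 positive and 4 negative, with 0 called and a median of 0.04, from Mta2 (-0.13) and Gatad2b (-0.08) to Gatad1 (0.10) and Mta3 (0.13). That median was -0.022 without pool 1 and 0.093 without pool 6.

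**Figure D3:**
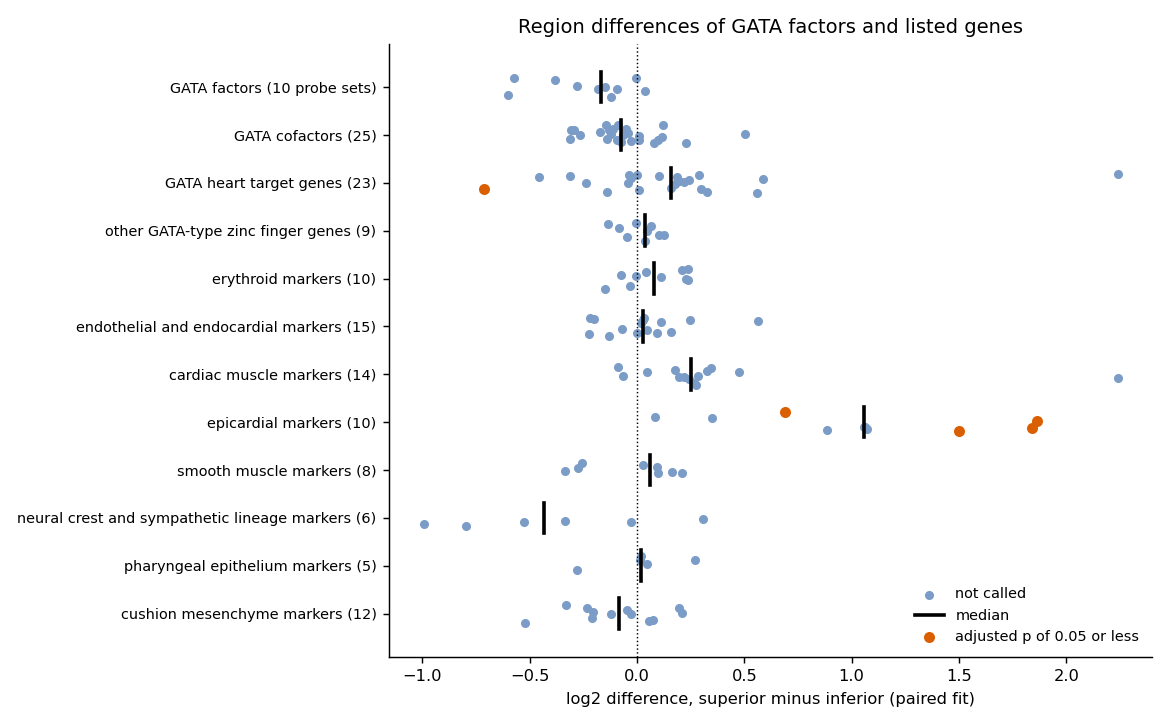
Log2 difference, superior minus inferior, of the 10 GATA probe sets and of the tested genes of each list (number in brackets), each point being 1 probe set and each black bar a median. Orange points are called at an adjusted p threshold of 0.05: 4 epicardial markers and Sema3c, and 0 GATA probe sets.

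Markers of the cell types that a GATA signal could come from were measured beside these results. Erythroid markers, which include the blood factor Gata1, had a summed signal of 14319.9 to 23490.0 in superior pools and 12952.9 to 16416.8 in inferior pools. Of 10 tested, 6 were higher and 4 lower, from Slc4a1 (-0.15) and Tal1 to Epor and Hbb-y (0.24 each), with 0 called and a median of 0.08, and Hba-a1 was below background on all arrays. Gata1 itself had 25.6 ± 10.8 in superior pools and 25.2 ± 8.46 in inferior pools (log2 -0.00 ± 0.18, limma adjusted p = 0.997), and its level was highest in both arrays of pool 6. Endothelial and endocardial markers, relevant to Gata2 and Gata5, had 9 higher and 6 lower of 15, with 0 called, a median of 0.03 and summed signals of 3022 to 3536 in superior pools and 3001 to 3571 in inferior pools, from Egfl7 and Kdr (-0.22 each) to Npr3 (0.25) and Emcn (0.56), the last of which was called without pool 7 (limma adjusted p = 0.0324).

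Neural crest and sympathetic lineage markers were listed because Gata3 is known from that lineage. Of the 11 markers measured, 6 passed the filter on dim signals, of which 5 were lower and 1 higher in superior pools, with 0 called and a median of -0.43. The summed signal of all 11 markers measured was 460.9 to 695.9 in superior pools and 683.4 to 943.0 in inferior pools, so that the ranges overlapped slightly. Most of that sum was Erbb3, an ErbB receptor gene. Its signals were 383.9, 506.0 and 309.9 in superior pools 1, 6 and 7 and 626.1, 702.8 and 412.8 in inferior pools (log2 -0.53 ± 0.10, limma adjusted p = 0.111). The homeobox gene Dlx2 had -0.99 ± 0.20 and the neurotrophin receptor gene Ngfr -0.79 ± 0.21, at limma adjusted p values of 0.155 and 0.267, while Elavl4 had -0.03 and Sox10 0.31. Dlx2 was called without pool 6 (limma adjusted p = 0.00772), and Erbb3 without pool 6 or without pool 7 (0.0437 and 0.0388). The defining crest markers Foxd3 and Tfap2b were below background on all arrays. The part of these cells in the Gata3 difference was not tested. Pharyngeal epithelium markers had 5 tested of 12, with 4 higher and 1 lower, 0 called and a median of 0.02. The pools differed widely, with medians of 0.05, 0.72 and -0.86 in pools 1, 6 and 7. Summed signals of the 11 pharyngeal markers measured, tested or not, were 1188 to 1366 in superior pools and 964.6 to 1472 in inferior pools. Among these, Epcam (-0.28), Cldn6 (0.01), Cdh1 (0.05) and Krt18 (0.27) were the ends of the range, Foxa2 was not tested because it was too dim, and Pax1 and Pax9 were below background on all arrays.

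Markers of muscle and of the covering layer, where Gata4 and Gata6 are known to act, were measured as well. Cardiac muscle markers had 12 higher and 2 lower of 14, with 0 called and a median of 0.25, from Actn2 (-0.09) and Ttn (-0.06) to Myl2 (0.48) and Nppa, and Tnnt2 had 0.20. Their summed signal of 45325.5 to 52857.1 in superior pools lay above the 39571.5 to 41460.7 in inferior pools, but the median was 0.08 with quantile normalization, and Nppa was called without pool 6 or without pool 7 and Myl2 without pool 6. Epicardial markers had 10 higher of 10 tested, with 4 called and a median of 1.06, the ends being Krt19 (0.09), Podxl (0.35), Upk1b (1.84) and Tbx18 (1.86), and the other called genes being Tcf21 (0.69) and Aldh1a2 (log2 1.5). The number called was 0 without the pool number, 1 without pool 1 and 7 without pool 7. The summed epicardial signal was 1772 to 2640 in superior pools and 1098 to 1383 in inferior pools, beside the near-equal Gata4 levels, and Msln was below background on all arrays. Smooth muscle markers had 5 higher and 3 lower of 8, with 0 called and a median of 0.06, from Smtn (-0.33) and Myocd (-0.27) to Tagln (0.17) and Acta2 (0.21), and summed signals of 12053.4 to 13376.3 in superior pools and 11259.2 to 11969.7 in inferior pools. Cushion mesenchyme markers had 4 higher and 8 lower of 12, with 0 called and a median of -0.08, from Snai1 (-0.52) and Sox9 (-0.33) to Col1a2 (0.20) and Col3a1 (0.21), and summed signals of 12863.9 to 17797.0 in superior pools and 11969.1 to 16238.3 in inferior pools. The part of any of these cell types in the GATA signals was not tested.

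**Figure D4:**
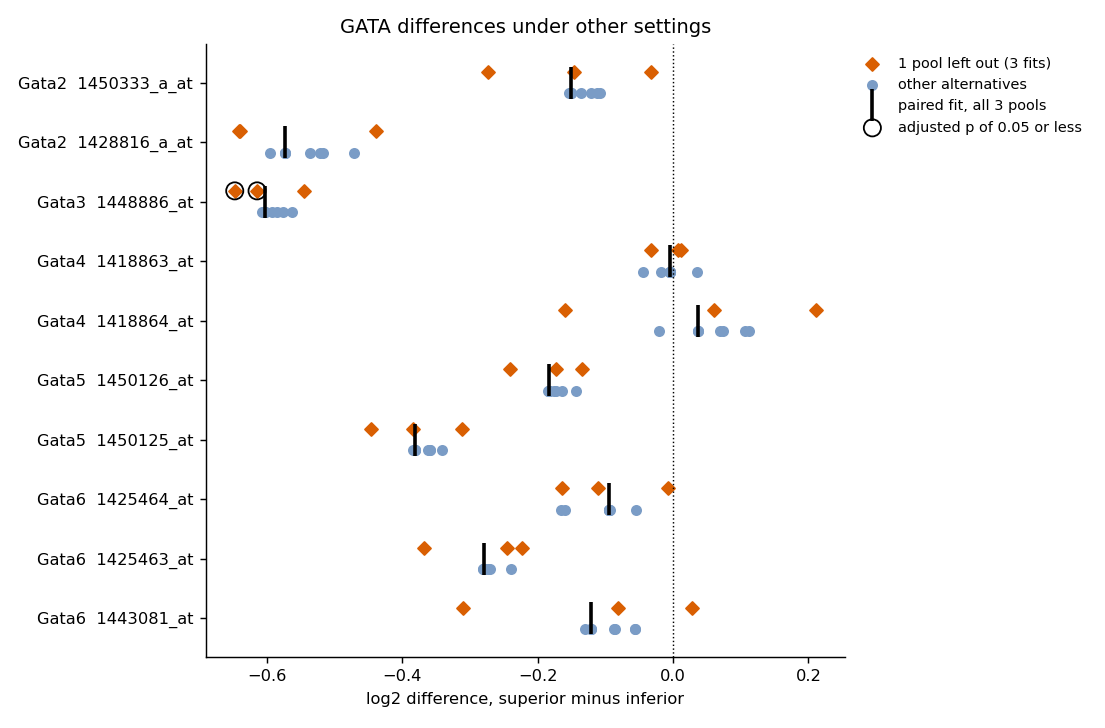
Log2 difference, superior minus inferior, of each GATA probe set in the paired fit (black bar), with 1 pool left out (orange diamonds) and under the other alternatives (blue points), circled where the adjusted p was 0.05 or less. Only Gata3 has circled points, without pool 6 and without pool 7, and Gata4 has points on both sides of 0.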

How the data were processed

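The deposited values are intensity signals on a linear scale, made by the authors with MAS5 per the submitters' processing notes, which give no version. The trimmed mean of each array was 100.0 (2% trimmed at either end). Of 45037 probe sets other than controls, 34945 named 1 gene in the platform annotation. An offset of 3.2, the 25th percentile of all signals, was added before log2, which understates differences of dim genes. Probe sets with a mean log2 above the median (a signal of about 15.1) were tested, 22518 in all. Regions were compared with limma 3.58.1 in R 4.3.3 (eBayes with trend and robust variance, Benjamini-Hochberg adjustment), with the pool number as a block, which leaves 2 residual degrees of freedom, so p-values lean on variance shared between probe sets. The pairing comes from the pool names in the labels. Same-numbered arrays deviated together from their region means, with correlations over probe sets of 0.79, 0.43 and 0.51 for pools 1, 6 and 7. Unlike numbers gave -0.54 to -0.46 where pool 1 was involved, and 0.18 and 0.20 between pools 6 and 7. Deviations from a region mean cancel out within the region, so these correlations depend on each other. They do not by themselves establish the pairing. The paired p-values measure how far the superior minus inferior difference varies between these pools, not how far the levels of the pools differ. No array depth exists, and the number of arrays limits the precision. The fit was tested on simulated data with normal noise. It recovered 99 of 100 planted log2 differences of 1 and 100 of 100 of 2, with 7 false calls among 206. Differences as small as those of the GATA probe sets were not simulated, so this does not show how often such differences are found. For differences, lists used the brightest tested probe set of each gene. Summed signals used the brightest probe set of every listed gene measured, tested or not. From each list the text names the called genes, the 2 highest and 2 lowest differences and a few fixed partners and markers. For likeness it names the 3 genes of highest r. Members and lists were chosen with earlier results of these data known. No genome coordinates other than those of RefSeq start sites are given.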

Additional observations from a re-analysis of the deposited data

How the results depend on the processing

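The comparison was repeated under 12 alternatives. The number of GATA probe sets called was 0 in the paired fit and in 10 of them, and 1 without pool 6 or without pool 7, a range of 0 to 1 when 1 pool was left out. That 1 was Gata3, whose difference ranged from -0.65 to -0.55 when a pool was left out and whose adjusted p ranged from 0.0255 to 1.00 over all 12. With no replicate block the pairing was ignored, and Gata3 kept -0.60 with an adjusted p of 1.00, Gata2 probe set 1450333_a_at -0.15, Gata4 probe set 1418863_at -0.00, Gata5 probe set 1450126_at -0.18 and Gata6 probe set 1425464_at -0.09, with no call made or lost. Signs turned only for Gata4 and for 1 dim Gata6 probe set. Gata4 probe set 1418863_at was 0.035 with 75th percentile scaling and from -0.033 to 0.012 when a pool was left out. Gata4 probe set 1418864_at was -0.021 with an offset of 16 and from -0.16 to 0.21 when a pool was left out. Gata6 probe set 1443081_at was from -0.31 to 0.027 when a pool was left out. The count over all probe sets was 36 in the paired fit, 0 with no replicate block, 22 when 1 was the offset, 1 when dim signals were kept, 2 among the top 25%, 0 without the trend and robust variance, 9 without pool 1, 231 without pool 6 and 113 without pool 7. Its higher and lower parts were 21 and 15, against 26 and 12 with 75th percentile scaling. Of 132 list medians under alternatives, 122 moved by less than their spread between pools. Dim probe sets and 3 pools a region limit what can be shown.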
